A study of Homo sapiens with 2 samples.

Results

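The enzymes described here make serine and move its 1-carbon units through folate: PHGDH, PSAT1, PSPH, SHMT1, SHMT2, MTHFD1, MTHFD2, MTHFD1L and TYMS. They are 9 of the 60664 genes in the count tables, taken as a list by symbol, and each symbol matched 1 Ensembl gene. The values come from 2 RNA-seq libraries of untreated, wild-type HEK293T cells, an established embryonic kidney line that was transformed with adenovirus DNA and also expresses SV40 large T antigen. The study concerned R-loop mapping, and its labels give 1 group of 2 replicates with no treatment, time or genotype to compare. Replicate 2 is entered as HEK294T under cell line and source but as HEK293T in its title, and the title was followed. Whether the replicates were grown as separate cultures is not stated, and their spread may be purely technical.

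Serine is made from a glycolytic intermediate in 3 steps: PHGDH oxidises 3-phosphoglycerate, PSAT1 adds the amino group and PSPH removes the phosphate. Serine hydroxymethyltransferase, SHMT1 in the cytosol and SHMT2 in mitochondria, then turns serine into glycine and passes a carbon to tetrahydrofolate. In mitochondria MTHFD2 oxidises that carbon and MTHFD1L releases it as formate, while in the cytosol MTHFD1 alone can carry out the matching steps in either direction. TYMS spends a folate-bound carbon to make thymidylate for DNA. Dividing cells are known to run the mitochondrial arm towards formate and to use it in the cytosol for purines and thymidylate. These statements are background, and none of them was measured here.

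The starts of the SHMT1 and SHMT2 coding sequences are shown because these enzymes catalyse the same reaction in different compartments. The GENCODE 29 principal transcripts have 483 codons for SHMT1 and 504 for SHMT2. In a local alignment 1103 coding bases were paired and 70.8% of them were identical. The alignment began after 112 coding bases of SHMT1 and after 181 of SHMT2. SHMT2 thus had 69 more bases, or 23 codons, ahead of the aligned part. Where a local alignment starts depends on its scoring, so bases before it can also be alike. Mitochondrial SHMT2 is known to be made with an amino-terminal targeting leader. Each line starts at the ATG start codon and ends 30 bases into the alignment, and capitals mark bases paired with an identical base, 19 of those 30.
SHMT1: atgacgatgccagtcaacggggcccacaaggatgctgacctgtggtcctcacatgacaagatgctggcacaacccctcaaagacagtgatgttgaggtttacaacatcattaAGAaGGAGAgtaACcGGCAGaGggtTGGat
SHMT2: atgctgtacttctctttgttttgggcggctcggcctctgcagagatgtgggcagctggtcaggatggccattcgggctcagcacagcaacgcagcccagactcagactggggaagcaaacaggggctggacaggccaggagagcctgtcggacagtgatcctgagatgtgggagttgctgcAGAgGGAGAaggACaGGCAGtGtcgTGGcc

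The libraries held 18011638 (replicate 1) and 18575058 (replicate 2) counts assigned to genes. CPM is the count scaled to a common library total, and genes with at least 1 CPM in each library were called detected. All 6 genes fixed as HEK293T markers were detected, among them UCHL1 at 334 ± 5.81 TPM and LIN28B at 9.17 ± 0.402. Of 20 markers of blood, liver, fibroblasts, endothelium and kidney tubules 4 were detected, and their summed level was 8.55 TPM in replicate 1 and 9.86 in replicate 2. CD3E, CYP3A4, COL1A2, TEK, AQP2 and UMOD had 0 counts in both. HBB had 0 counts in replicate 1 and 38 in replicate 2. TPM is the count per exon length, scaled to the same total in each library, and means are given ± SD of the 2 libraries.

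All 9 enzymes were detected, where 65.9% of protein-coding genes and 27.7% of all genes were. Their median level was 56.2 TPM, against 2.88 TPM for all 19890 protein-coding genes and 8.52 TPM for the 13112 of these that were detected. Together they held 0.219% of the counts in replicate 1 (exact 95% binomial interval 0.217 to 0.222) and 0.223% in replicate 2 (0.220 to 0.225). Of their counts, serine synthesis took 55.9% ± 0.371, the mitochondrial arm 31.6% ± 0.124 and the cytosolic arm 12.6% ± 0.495. Such intervals describe counting error within 1 library and hold no variation between libraries. PCR copies could not be told from separate molecules, so the intervals may be too narrow even for counting error.

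The first 2 enzymes of serine synthesis had the highest TPM of the 9 transcripts, and the last step was far lower. PHGDH (ENSG00000092621), at chr1:119648411-119744218 on the plus strand (GRCh38), had 12614 counts in replicate 1 and 14067 in replicate 2. That was 700 and 757 CPM, or 157 and 163 TPM. PSAT1 (ENSG00000135069), at chr9:78297125-78330093 on the plus strand, had 8626 and 8302 counts, which was 479 and 447 CPM, or 448 and 401 TPM. PSPH (ENSG00000146733), at chr7:56011051-56051604 on the minus strand, had 718 and 824 counts, which was 39.9 and 44.4 CPM, or 29.8 and 31.8 TPM. By TPM, PSAT1 was first of the 9 at 424 ± 33.7 and PHGDH second at 160 ± 3.95, and the ranges of their libraries did not overlap. The order of this pair turned with the length used. The deposited exon length of PHGDH is 9187 bases, because it merges all annotated exons, whereas its principal transcript has 2585 bases. With principal transcript lengths, an alternative chosen after seeing the data, PHGDH stood at 368 ± 11.5 TPM and PSAT1 at 277 ± 20.2. PSPH was below both on every scale, at 30.8 ± 1.38 TPM with the deposited length and 25.3 ± 1.30 with the principal transcript. Among protein-coding genes ranked by mean TPM, PSAT1 was 226th of 19890, PHGDH 587th and PSPH 2745th. None of these genes shares exonic bases with another gene, so their counts carry no doubt of that kind.

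**Figure D1:**
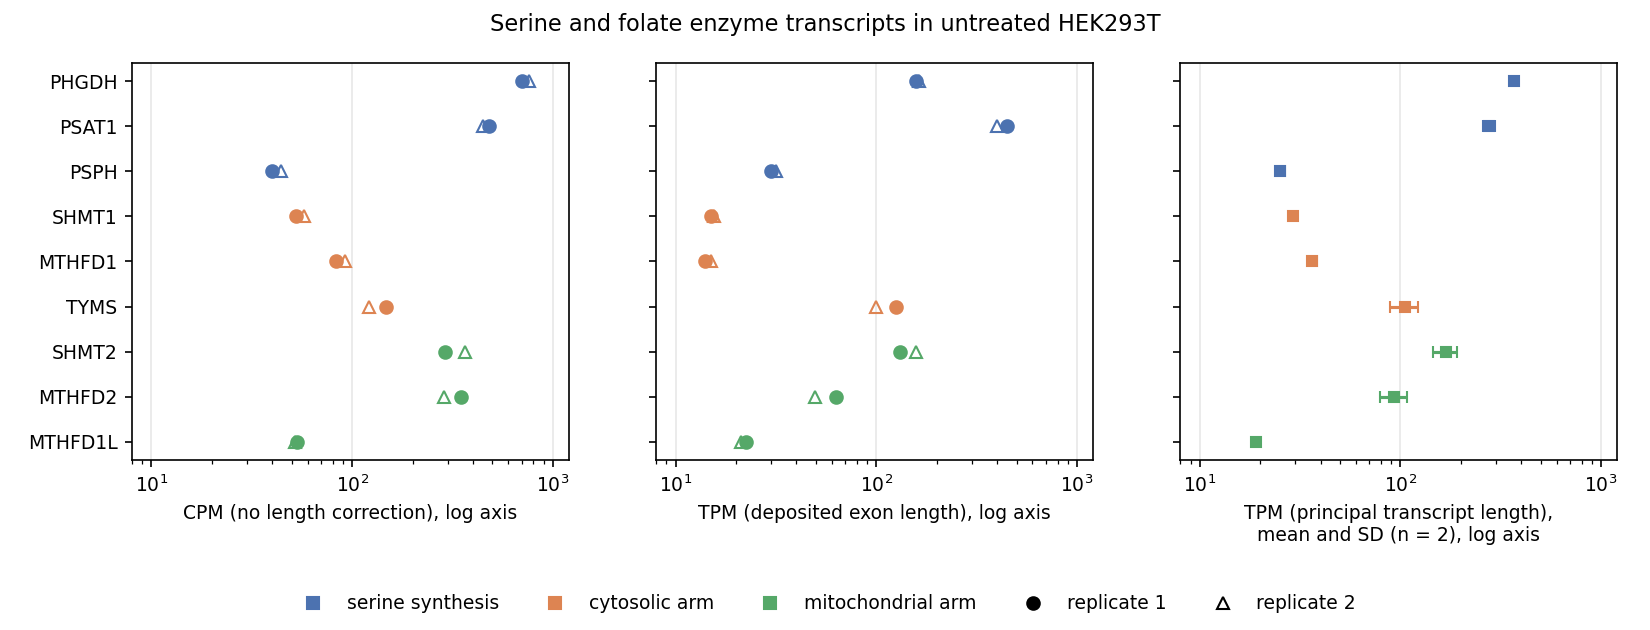
Levels of the 9 transcripts as CPM, as TPM with the deposited exon length and as TPM with the principal transcript length, on log axes; in the first 2 panels circles are replicate 1 and open triangles replicate 2, and in the third squares with bars are the mean and SD (n = 2). SHMT2 and MTHFD2 lie above SHMT1 and MTHFD1 in all 3 panels, while MTHFD1L (21.7 TPM with the deposited length, 19.1 with the principal transcript) lies above MTHFD1 (14.5 and 36.5) in the middle panel alone.

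In the cytosolic arm, SHMT1 and MTHFD1 were the lowest of the 9 transcripts by deposited length and TYMS was much higher. SHMT1 (ENSG00000176974), at chr17:18327860-18363563 on the minus strand, had 951 and 1066 counts. This gave 52.8 and 57.4 CPM, or 14.97 and 15.59 TPM. MTHFD1 (ENSG00000100714), the cytosolic enzyme with 3 activities, at chr14:64388031-64463457 on the plus strand, had 1489 and 1716 counts. This gave 82.7 and 92.4 CPM, or 13.98 and 14.96 TPM. The TPM ranges of SHMT1 and MTHFD1 did not overlap but all but touched, at 14.97 for the lower SHMT1 library and 14.96 for the higher MTHFD1 library, and their order was reversed with principal transcript lengths (29.2 ± 1.02 TPM for SHMT1, 36.5 ± 1.98 for MTHFD1). TYMS (ENSG00000176890), thymidylate synthase, at chr18:657653-673578 on the plus strand, had 2654 and 2259 counts, which was 147 and 122 CPM, or 126 and 99.3 TPM.

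The TYMS value is uncertain because of its neighbours. It shares 47.5% of its exonic bases with genes on the opposite strand, and the counts behave as if a read was given to every gene it overlapped, whatever the strand. ENOSF1 shares 967 bases with TYMS, of which 383 are coding and 584 untranslated in the principal TYMS transcript, and it had 2361 and 2084 counts. TYMSOS, a noncoding gene at the TYMS start, shares 183 bases and had 695 and 582 counts. Together these came to 3056 counts in replicate 1 and 2666 in replicate 2, more than TYMS itself, so the counts do not fix how many TYMS reads were its own.

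In the mitochondrial arm, SHMT2 and MTHFD2 were high and MTHFD1L was low. SHMT2 (ENSG00000182199), at chr12:57229573-57234935 on the plus strand, had 5238 counts in replicate 1 and 6779 in replicate 2. This gave 291 and 365 CPM, or 131 and 157 TPM, with replicate 2 the higher. MTHFD2 (ENSG00000065911), the mitochondrial dehydrogenase and cyclohydrolase, at chr2:74186172-74217565 on the plus strand, had 6253 and 5349 counts. This gave 347 and 288 CPM, or 62.7 and 49.8 TPM, with replicate 1 the higher. MTHFD1L (ENSG00000120254), the mitochondrial formyltetrahydrofolate synthetase, at chr6:150865679-151101887 on the plus strand, had 955 and 968 counts, which was 53.0 and 52.1 CPM, or 22.4 and 21.1 TPM. SHMT2 ranked 661st among protein-coding genes by mean TPM, MTHFD2 1628th and MTHFD1L 3651st. The TPM ranges of these 3 transcripts did not overlap one another, and SHMT2 was highest and MTHFD1L lowest with the principal transcript lengths too.

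SHMT2 and MTHFD2 also overlap genes on the opposite strand. ENSG00000276727, a gene of the antisense type at the SHMT2 start, shares 352 of its 701 exonic bases with SHMT2 and had 1102 and 1624 counts. NDUFA4L2, at the other end, shares 33 bases and had 76 and 96. If all of these were reads of the shared bases, SHMT2 would keep at least 4060 counts in replicate 1 and 5059 in replicate 2. MTHFD2 shares 1324 bases, all untranslated in its principal transcript, with SLC4A5 (329 and 296 counts) and 295 with ENSG00000264324 (2499 and 2542 counts). It would keep at least 3425 and 2511 counts by the same reckoning. MTHFD1 shares 15.7% of its exonic bases, with ENSG00000272909 (1556 bases), ENSG00000258824 and ZBTB25, and would keep at least 601 and 479. SHMT1 shares 3.71%, with SMCR8 and MIR6778, and would keep at least 590 and 735, whereas MTHFD1L shares none.

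Most SHMT counts belonged to the gene of the mitochondrial enzyme. SHMT2 held 84.6% of the counts of the SHMT pair in replicate 1 (exact 95% binomial interval 83.7 to 85.5) and 86.4% in replicate 2 (85.6 to 87.2). Per length, SHMT2 over SHMT1 was 3.13 log2 in replicate 1 and 3.33 in replicate 2, a mean of 3.23 ± 0.15 (n = 2) on the log2 TPM scale, or 9.38-fold. With CPM the mean was 2.57 and with principal transcript lengths 2.52, or 5.75-fold. With the deposited lengths the least value that overlapping genes allow was 2.76 in replicate 1 and 2.91 in replicate 2. With principal transcript lengths that least value was 2.05 and 2.20. SHMT2 was therefore above SHMT1 in both libraries on each of these scales, and the size of the difference moved with the length.

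MTHFD2 was above MTHFD1 as well. The ratio was 2.16 log2 in replicate 1 and 1.73 in replicate 2 on the TPM scale, a mean of 1.95 ± 0.30 (n = 2), or 3.86-fold. It was 1.86 with CPM and 1.35 with principal transcript lengths. The least value that overlapping genes allow was 1.30 in replicate 1 and 0.64 in replicate 2 with the deposited lengths. With principal transcript lengths it was 0.69 and 0.04, the latter close to 0. The counts do not separate the shared bases from the rest of each gene.

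For MTHFD1L and MTHFD1 the direction depended on the length. These enzymes share the synthetase activity, and 1786 coding bases were paired in a local alignment, 70.8% of them identical, ending at the last coding base of both. MTHFD1L over MTHFD1 was 0.68 log2 in replicate 1 and 0.49 in replicate 2 on the TPM scale with the deposited lengths, a mean of 0.59 ± 0.13 (n = 2). It turned to -0.73 with CPM and to -0.93 with principal transcript lengths. The deposited exon length of MTHFD1 is 12208 bases and its principal transcript has 3136, against 4891 and 3604 for MTHFD1L. Both replicates gave the same sign within each scale, and the scales did not share a sign. With principal transcript lengths the overlaps of MTHFD1 allowed up to 0.47 in replicate 1 and 0.81 in replicate 2.

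Taken as medians of 3 genes, the mitochondrial arm stood above the cytosolic arm by 2.06 log2 in replicate 1 and 1.67 in replicate 2, on the log2(TPM + 0.1) scale, a mean of 1.86 ± 0.28 (n = 2). The medians were 56.2 ± 9.11 TPM and 15.3 ± 0.432 TPM, against 160 ± 3.95 TPM for serine synthesis. Without TYMS the difference was 1.90. In summed TPM the arms were 216 and 228 for the mitochondrial genes and 155 and 130 for the cytosolic genes. With 2 libraries a two-sided test on the signs cannot give a p under 0.5, so none of these ratios was tested.

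**Figure D2:**
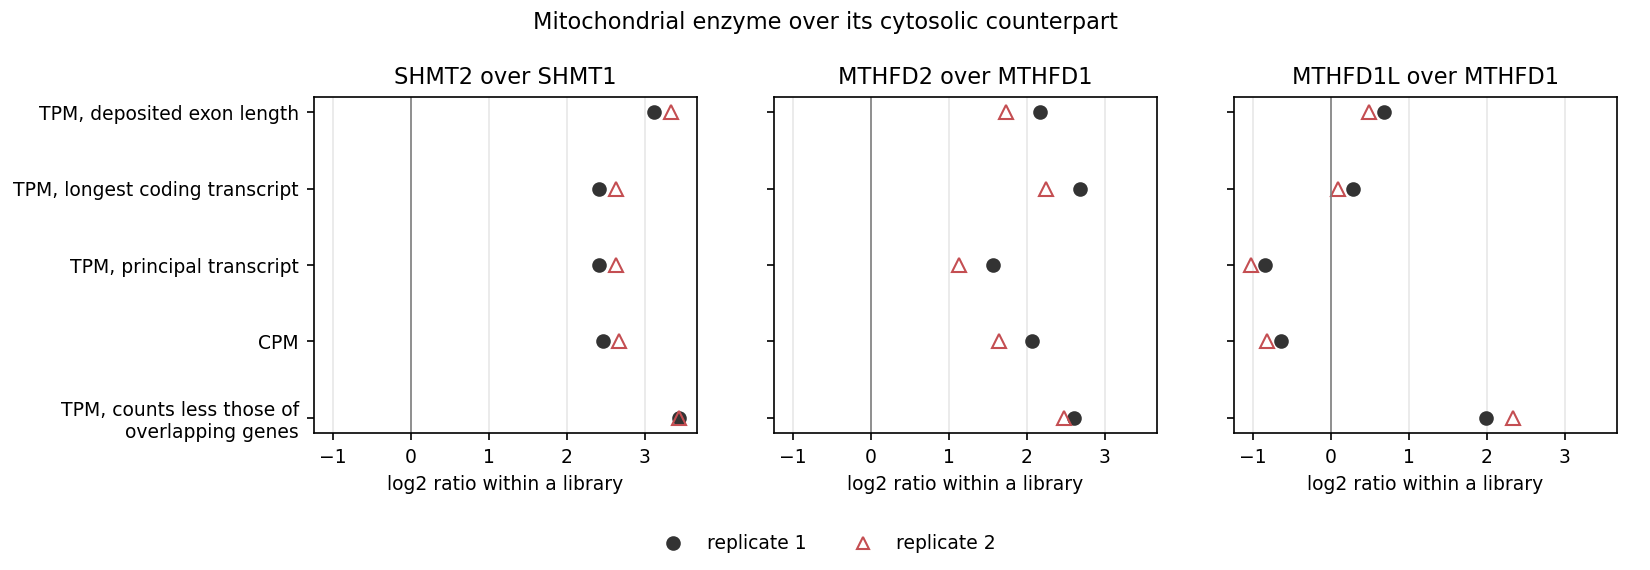
The log2 ratio of each mitochondrial enzyme to its cytosolic counterpart within a library, for 3 choices of length, for CPM and after taking the counts of overlapping genes from both members; circles are replicate 1 and triangles replicate 2. SHMT2 over SHMT1 and MTHFD2 over MTHFD1 lie right of 0 in every row, while MTHFD1L over MTHFD1 lies at 0.68 and 0.49 with the deposited length and left of 0 with CPM and the principal transcript.

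Between the replicates the 9 transcripts differed by at most 0.36 log2 in either direction. No member reached 1 log2 between the libraries, where 2.06% of the 14704 genes averaging at least 50 counts did (1.92% lower and 0.143% higher in replicate 2). None reached 0.5 log2, where 11.7% of those genes did. Shares this low leave few of any 9 genes past either limit, so these counts mark no trait of the members. The genes compared reach down to a mean of 50 counts, while every member had at least 718 in each library. SHMT2 had the widest difference, higher in replicate 2 by 0.36 log2, and TYMS was lower in replicate 2 at -0.25 and MTHFD2 at -0.24. The remaining members lay between -0.07 for PSAT1 and 0.19 for MTHFD1, with PHGDH at 0.14. In all, 6 members were higher and 3 lower in replicate 2, with MTHFD1L at 0.01. After centring on GC content SHMT2 stood at 0.23, MTHFD2 at -0.12, PHGDH at 0.05, SHMT1 at 0.06 and PSAT1 near 0, while TYMS was then the widest at -0.29. The sign of MTHFD1L turned under that centring (-0.06) and with library totals alone (-0.02). SHMT2 and MTHFD2, the abundant members of the same arm, thus differed in opposite directions, and their CPM ranges overlapped (328 ± 52.4 and 318 ± 41.9). For single counts the exact 95% Poisson interval reached 1.75% either side for PHGDH and 7.39% for PSPH in replicate 1. The trended coefficient of variation from edgeR was 11.3% at the abundance of SHMT2 and 13.5% at that of PSPH. Each side of these ratios is a single library, so no p-value was computed.

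**Figure D3:**
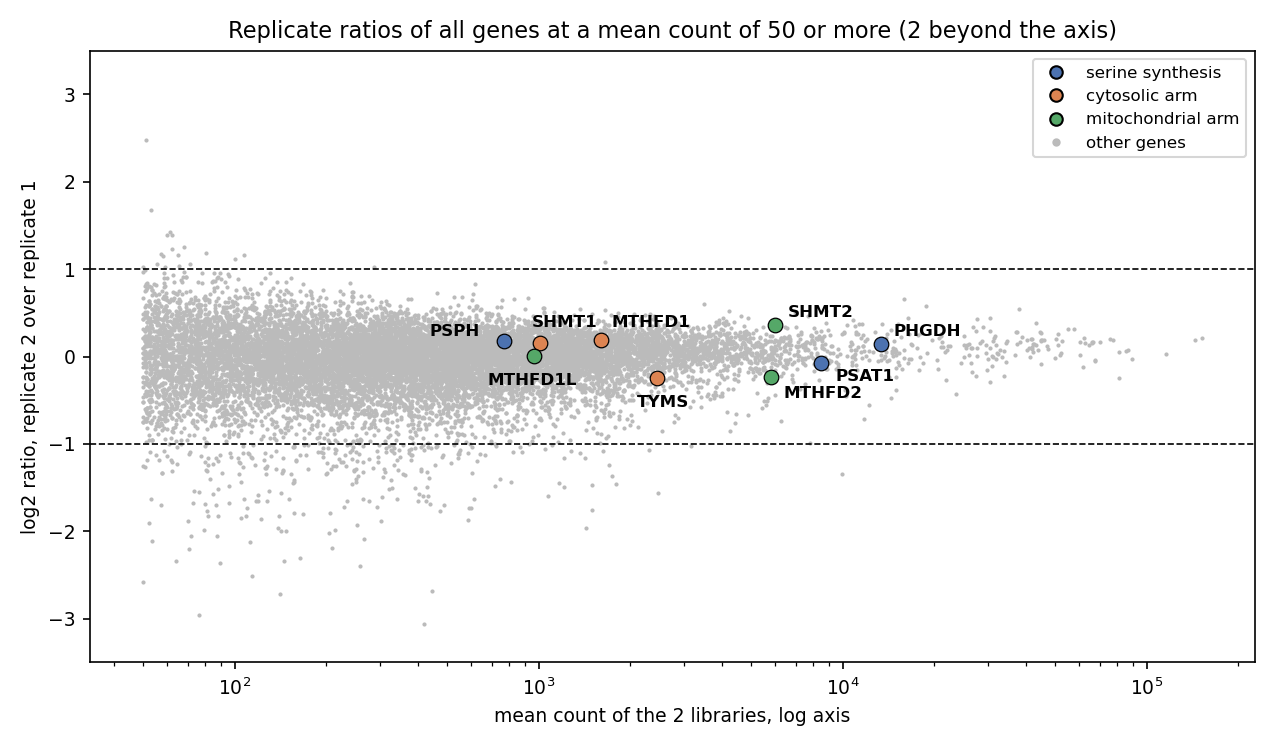
The log2 ratio of replicate 2 over replicate 1 against mean count (log axis) for 14704 genes, with the 9 enzymes coloured by arm and dashed lines at 1 and -1; 2 genes lie beyond the axis. All 9 lie between the dashed lines, from -0.25 for TYMS to 0.36 for SHMT2.

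The named copies of the enzymes, all pseudogenes, took almost no counts. The annotation names 16 copies of 6 members, 7 of MTHFD2 and 4 of PSAT1 among them, and 15 had 0 counts in both libraries. The exception was MTHFD1P1 on chromosome X, with 1 count in replicate 1. How reads that align to several places were treated is not given in the sources used here, so reads shared by a gene and its copies may be missing from the gene's count.

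Of 53 other genes of the pathway, in 11 lists, 44 were detected, at a median of 11.4 TPM over all 53. The share over all protein-coding genes, 65.9%, is the background for this count and for those of the single lists, several of which lie near it. None of the 43 that averaged at least 50 counts reached 1 log2 between the libraries, where 2.06% of all genes at that level did. A share this low leaves few of any 43 genes past that limit, so this count marks no trait of the pathway. Their values follow by role, with the members' levels as the reference.

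Of the genes for folate uptake and retention 5 of 7 were detected, and both folate receptors were at or near 0. SLC19A1, the reduced folate carrier, had 10.5 ± 0.501 TPM, and SLC46A1, the proton-coupled carrier, had 7.69 ± 0.137 but overlaps other genes over 60.6% of its exonic bases. The folate receptor FOLR1 had 4 counts in each library and FOLR2 had 0, which allows up to 0.167 CPM in replicate 1 and 0.162 in replicate 2. FPGS, which adds the glutamate tail that retains folate, had 26.3 ± 0.465 TPM, and GGH, which removes it, had 23.9 ± 2.57. This near equality depended on the length, as the deposited exon length of GGH is 10619 bases. With principal transcript lengths GGH stood at 102 ± 10.3 TPM and FPGS at 29.35 ± 0.328. SLC25A32, the mitochondrial folate carrier, had 11.4 ± 0.771 TPM and shares 80.8% of its exonic bases. The 3 carriers were chosen after their values were seen.

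Among the other cytosolic folate enzymes 5 of 7 were detected, at a median of 35.9 TPM. MTHFS, which recovers 5-formyltetrahydrofolate, had 52.7 ± 0.101 TPM and shares 43.4% of its exonic bases. ALDH1L1, the cytosolic formyltetrahydrofolate dehydrogenase, had 11 and 19 counts, and FTCD, of histidine breakdown, had 17 in each. GART and ATIC, the purine enzymes that take up formyl groups, stood at 35.9 ± 0.195 and 39.6 ± 0.838 TPM. Both lie between PSPH and MTHFD2 on that scale; they were chosen after their values were seen.

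The other mitochondrial folate enzymes were all detected but lower than SHMT2 and MTHFD2, at a median of 5.95 TPM. MTHFD2L, a paralogue of MTHFD2, had 5.88 ± 0.714 TPM, against 56.2 ± 9.11 for MTHFD2. The mitochondrial dehydrogenase ALDH1L2 had 533 and 498 counts, or 6.01 ± 0.603 TPM, so for this pair also the mitochondrial form was the higher, with ALDH1L1 at 0.120 ± 0.0393 TPM. MTFMT, which formylates the mitochondrial initiator tRNA, had 8.76 ± 0.277 TPM.

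Glycine cleavage, which would add carbon from glycine in mitochondria, had GCSH and DLD well above GLDC and AMT. GCSH, the lipoyl carrier, had 40.7 ± 2.69 TPM and DLD, which other dehydrogenases also use, 34.7 ± 0.98. GLDC, the decarboxylase, had 3.90 ± 0.499 TPM, and AMT, the aminomethyltransferase, 2.54 ± 0.298. AMT overlaps other genes over 62.6% of its exonic bases. All 4 were detected.

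The methionine cycle, which takes a methyl group from folate, had 5 of 7 genes detected. MAT2A, the S-adenosylmethionine synthetase of most tissues, had 133 ± 1.84 TPM, and AHCY, which clears S-adenosylhomocysteine, had 110.5 in replicate 1 and 125 in replicate 2. The liver form MAT1A had 2 and 9 counts, and GNMT, an abundant liver methyltransferase, had 20 and 9. Of the genes for carbon from choline, CHDH had 6.88 ± 1.01 TPM and DMGDH 0.687 ± 0.0229. BHMT had 6 and 8 counts and SARDH 10 and 18, and neither was detected. CBS and CTH of transsulfuration had 7.63 ± 0.808 and 30.0 ± 2.80 TPM, and CBS has a near-identical copy in this build, so its value is uncertain.

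Thymidylate supply, the pathway around TYMS, had 4 of 4 genes detected and a median of 111 TPM. DTYMK, which phosphorylates thymidylate, had 167 ± 6.63 TPM, TK1, the salvage kinase, 145 ± 15.1, DUT, which yields the TYMS substrate, 77.3 ± 10.8, and DCTD, which also feeds it, 19.3 ± 1.29. The TYMS value of 112 ± 18.6 TPM lay within this range.

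All 6 serine transporters were detected, at a median of 19.8 TPM. SLC1A5, a neutral amino acid exchanger, had 156 ± 14.5 TPM and SLC38A2 43.0 ± 8.35, while SLC1A4 had 6.59 ± 0.210 and SFXN3 4.97 ± 0.109. SFXN1, which carries serine into mitochondria, stood at 20.6 ± 1.61 TPM and was chosen after its value was seen. Of 5 genes that use or break down serine 4 were detected. SRR, the racemase, had 33.3 ± 1.84 TPM and shares 43.9% of its exonic bases, SDSL had 21.8 ± 0.426, SPTLC2, of sphingolipid synthesis, had 6.46 ± 0.087, and SDS, the liver serine dehydratase, had 5 and 3 counts.

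ATF4, a transcription factor known to act on PHGDH, PSAT1, SHMT2 and MTHFD2, had the highest TPM of the members and the pathway genes. It had 21417 and 22713 counts, or 932 ± 10.2 TPM. CEBPG, a partner of ATF4, had 60.1 ± 4.01 TPM and MYC 21.2 ± 3.74. These are transcript levels in 2 untreated libraries, and no link between them and the enzymes was tested.

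**Figure D4:**
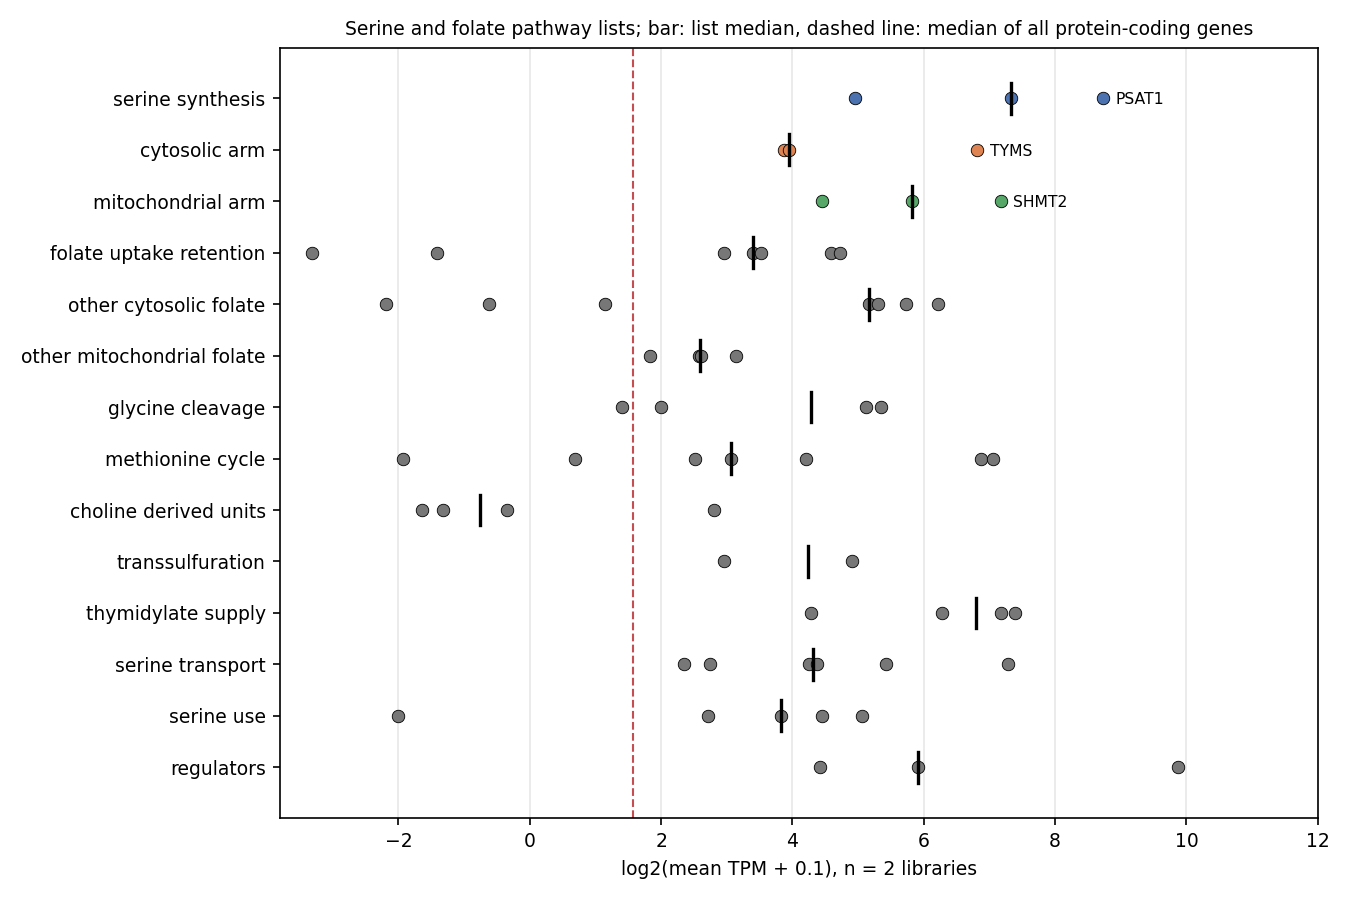
Each point is log2(TPM + 0.1) of a gene's mean TPM over 2 libraries, in rows by list; black bars are list medians, coloured points the 9 enzymes, and the dashed line the median of all protein-coding genes (2.88 TPM). The 9 enzymes all lie right of the dashed line, and the list of choline-derived units, with a median of 0.493 TPM, is the row whose median lies left of it.

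RefSeq promoters (GRCh38.p14), each from 250 bases before to 50 after a start site, were at hand for 7 of the 9 members, 10 windows in all. PSPH and SHMT2 had no window and were not searched, while MTHFD1L had 4 of the 10 windows. The windows were searched on both strands for TGATGNAA, the core of the element bound by ATF4 with C/EBP proteins, and for CACGTG, the E-box bound by MYC. TGATGNAA was found for 1 member, MTHFD1L, in 3 of its windows, which overlap and hold the same site. It is in 3.62% of 35116 promoters of this length. CACGTG was found for MTHFD1L and MTHFD1, and is in 7.26% of promoters. GGGCGG, the GC box, was found for MTHFD1L, PSAT1 and SHMT1 (45.0% of promoters), and TATAAA for PHGDH alone (11.5%). TGATGCAA of MTHFD1L begins 129 bases before the start site of its first listed window and its E-box 154 before, while the E-box of MTHFD1 begins 15 bases before. The E-boxes are printed because MTHFD1L and MTHFD1 are counterparts and, of the 7 members with a window, the ones that held this motif. Capitals mark CACGTG. The first line is chr6:150866320-150866349 and the second chr14:64388323-64388352, both on the plus strand.
MTHFD1L: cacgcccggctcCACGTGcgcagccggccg
MTHFD1: tggccagtccctaagCACGTGggttgggtt
A match is a run of letters and not a site shown to be bound, and its absence from a window says nothing about the factor.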

How the data were processed

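Each deposited file lists the raw counts of 1 library by Ensembl gene; the authors left them unnormalised, as the whole-number values show. After DNase treatment cDNA was primed with oligo(dT), which favours RNAs with a poly(A) tail, and single-stranded cDNA fragments were made into libraries, per the labels' protocols. Tools named in the submitters' processing notes are bcl2fastq 2.17, Trim Galore 0.6.7 and featureCounts 2.0.3, with build GRCh38. Not given in the sources used here are the aligner, the annotation release, and how strand, overlap and multiple alignments were handled.

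Symbols were found for 60463 of 60664 gene IDs, and 58396 IDs were in GENCODE 29 (same build), which gave gene types and transcripts. Positions and exon lengths were taken as deposited. CPM and TPM were computed here from the counts, with no scaling between libraries. Exonic overlap came from bedtools 2.31.1. In 837 pairs a gene lies wholly inside exons of an opposite-strand gene; in replicate 1 the inner gene had counts in 523 of them and exceeded the outer gene in 0. The least counts of a member are its own less all counts of the genes that overlap it.

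For ratios between replicates edgeR 4.0.16 (R 4.3.3) gave log2 values after TMM scaling, with a prior of 2 counts. Size factors from DESeq2 1.42.0 were an alternative. In counts simulated for that comparison over 14704 genes, 1 log2 was passed by 99% of genes set to a 4-fold change, by 52% at a 2-fold change and by 0.0483% of unchanged genes. The simulated spread was set below the common coefficient of variation of 15.6% that edgeR estimated from these libraries. The simulated shares are therefore not error rates for these data, in which 2.06% of genes passed 1 log2. Coding sequences were aligned with Biopython 1.88. With a single group there was no contrast to test.

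The members and the gene lists were chosen with earlier results of these data known. Named genes were all members, genes overlapping them, their named copies and, in each list, the 2 highest and 2 lowest by mean TPM, except where stated. A few pathway genes go unnamed in the text but count in their lists' totals and medians. No likeness of patterns was computed, since 2 libraries of 1 group give no pattern.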

Additional observations from a re-analysis of the deposited data

How the results depend on the processing

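At the stricter threshold of 10 CPM 9 members were still detected; a laxer threshold or 1 library could not lower that number. SHMT2 over SHMT1 (3.23 log2) became 2.52 with the longest coding or the principal transcript, 2.57 with CPM and 3.45 with the counts of overlapping genes taken from both. MTHFD2 over MTHFD1 (1.95) became 2.47 with the longest coding transcript, 1.35 with the principal transcript and 2.54 with overlapping counts removed. MTHFD1L over MTHFD1 (0.59) was 0.19 with the longest coding transcript and 2.16 with overlapping counts removed, and it turned to -0.93 with the principal transcript and -0.73 with CPM. The difference between the arm medians (1.86 log2) became 1.35 with the principal transcript and 2.52 with overlapping counts removed. That removal set TYMS to 0 counts in both libraries, which lowers the cytosolic median, so part of the rise to 2.52 comes from TYMS. The principal transcript and the removal of overlapping counts were chosen after seeing the data. The members' share of counts (0.221%) became 0.226% without genes of the mitochondrial genome in the total.

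Genes lower in replicate 2 by 1 log2 numbered 282, and 562 with a minimum mean of 10 counts, 2257 with no filter and 164 after centring on GC content. Genes higher numbered 21, then 214 and 1172 with these filters and 31 after the GC centring. No member passed 1 log2 under any of the 6 alternatives. The lower minimum and the absence of a filter leave a member's ratio as it was, so these settings could not change that result. Among single genes, 29 of 81 values moved by more than their spread or counting error. That tally includes CPM set against TPM, which is a change of unit. It also includes values without 1 library, which cannot move by this rule, so the tally is no measure of stability. Leaving out 1 of 2 libraries returns the other library's value, so it says nothing about stability. No paired analysis was possible because the labels give 1 group. The depth limits only the lowest genes of the pathway, such as FOLR2.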
